A study of Mus musculus with 2 samples.

Results

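The genes described here are 6 matrix metalloproteinases, Mmp2, Mmp3, Mmp9, Mmp12, Mmp13 and Mmp14, and 3 of their tissue inhibitors, Timp1, Timp2 and Timp3. They were chosen by symbol from the 32287 features counted in single cells of the infarcted mouse heart, and all 9 were in both count tables. The mice carried p16-2A-CreER and R26-mTmG, so that tamoxifen makes cells with p16 promoter activity switch from membrane tomato to membrane GFP. All had myocardial infarction (MI), received tamoxifen by oral gavage on day 5 and were sampled on day 7, when the infarcted region was digested and cardiomyocytes were spun out. The remaining cells were sorted into a GFPhi and a GFPlo fraction, which other label fields call GFP+ and GFP-, and each fraction gave 1 droplet 3′ library. Neither the age, the sex and the number of mice nor whether mice were pooled is stated in the labels. With 1 library per fraction there is no replicate and no test: every interval below is a 95% interval for counting error only, and the fraction and its library cannot be told apart.

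Matrix metalloproteinases are secreted or membrane-bound zinc enzymes that cut collagens, elastin and other matrix proteins, and they are made as inactive proenzymes. The TIMP proteins bind the active site and block it, while TIMP2 held on the membrane enzyme MMP14 also serves as the receptor on which pro-MMP2 is activated. After infarction these enzymes and inhibitors take part in the clearing of dead muscle and in the building of the scar. Transcript levels say nothing of how much enzyme is active, since activation and inhibition happen on the protein.

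On chromosome 9 of mm10 (GENCODE vM21), Mmp13 (chr9:7272514-7283331), Mmp12 (chr9:7344381-7369499) and Mmp3 (chr9:7445822-7455975) lie on the plus strand in a cluster of 10 metalloproteinase genes that spans 427072 bases. Mmp2 (chr8:92827291-92853420, plus strand), Mmp9 (chr2:164940780-164955850, plus) and Mmp14 (chr14:54431612-54445364, plus) lie on other chromosomes. The inhibitors are at chrX:20870166-20874735 (Timp1, plus), chr11:118301069-118355740 (Timp2, minus) and chr10:86300372-86349506 (Timp3, plus). Timp1 lies wholly inside Syn1 and Timp3 wholly inside Syn3, each on the opposite strand. Timp2 shares 10141 bases with Cep295nl on its own strand, and Mmp12 shares 1261 with Mmp1b, which had 1 UMI in each library, on the opposite strand. Whether counting used strand is not stated, so reads in the shared stretches could have been assigned to either gene.

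RefSeq promoter windows (GRCm38.p6, 250 bases before to 50 after a start site) were at hand for 7 of the 9 genes, all but Mmp2 and Mmp9. Those of the 3 neighbours on chromosome 9 are shown because these genes had the narrowest expression, and that of Mmp14 because it had a broad one. Each line holds the 250 bases before the start site, 5′ to 3′ on the gene's strand. Capitals mark TGAGTCA, the AP-1 site, on either strand (it reads TGACTCA when on the other strand), and in Mmp14 they mark 2 adjoining copies of GGGCGG, the GC box.
Mmp3 (chr9:7445572-7445821, plus strand): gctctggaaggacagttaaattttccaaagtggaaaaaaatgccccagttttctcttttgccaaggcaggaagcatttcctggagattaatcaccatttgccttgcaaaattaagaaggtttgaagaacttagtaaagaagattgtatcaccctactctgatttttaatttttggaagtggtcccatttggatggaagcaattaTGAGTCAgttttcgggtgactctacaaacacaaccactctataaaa
Mmp12, the second of its 2 listed starts (chr9:7347124-7347373, plus strand): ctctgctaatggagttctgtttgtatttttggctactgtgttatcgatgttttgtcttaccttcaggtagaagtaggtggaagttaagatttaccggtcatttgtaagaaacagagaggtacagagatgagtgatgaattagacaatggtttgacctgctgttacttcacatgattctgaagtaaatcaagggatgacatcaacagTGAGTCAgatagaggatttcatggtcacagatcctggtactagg
Mmp13 (chr9:7272264-7272513, plus strand): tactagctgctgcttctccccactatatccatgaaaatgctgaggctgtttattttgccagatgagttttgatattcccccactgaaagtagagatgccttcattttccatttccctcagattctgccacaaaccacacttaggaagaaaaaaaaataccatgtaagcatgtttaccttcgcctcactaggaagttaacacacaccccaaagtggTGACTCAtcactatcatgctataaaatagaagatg
Mmp14 (chr14:54431348-54431597, plus strand): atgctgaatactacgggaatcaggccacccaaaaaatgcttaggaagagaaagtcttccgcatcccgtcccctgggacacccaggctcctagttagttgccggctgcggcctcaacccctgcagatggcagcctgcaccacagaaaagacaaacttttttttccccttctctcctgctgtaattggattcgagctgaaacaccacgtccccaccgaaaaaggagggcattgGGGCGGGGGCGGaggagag
The AP-1 letters lay 46 to 40 bases before the start in Mmp3, 44 to 38 before the second start of Mmp12 and, on the minus strand, 35 to 29 before the start of Mmp13. The window at the first listed start of Mmp12 held none, and neither did those of Mmp14, Timp1, Timp2 and Timp3, which all held the GC box. Of all 32851 promoter windows of this length, 1709 (5.20%) held TGAGTCA and 35.7% held GGGCGG on either strand. These are matches of letters and not evidence of binding.

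The libraries held 10125 GFPhi and 11959 GFPlo cells after filtering (at least 300 genes, at least 500 unique molecular identifiers or UMIs, and at most 20% mitochondrial UMIs), with median depths of 6899 and 7712 UMIs. Cells were sorted by computer into lineage gates by their UMIs of marker panels that held none of the 9 genes, which placed 85.4% of GFPhi and 76.9% of GFPlo cells. Gates are called below by the cell type whose markers they use. GFPhi was mostly macrophages (7531 cells, against 60 in GFPlo) and GFPlo mostly fibroblasts (6928, against 368 in GFPhi). Mesothelial cells numbered 413 and 872, endothelial cells 259 and 780, neutrophils 1 and 51 and mural cells 12 and 100. Some markers left out of the panels followed the gates, in CPM (UMI counts per 1000000 of the gate): C1qa reached 3763 CPM in GFPhi macrophages, and Krt8 reached 357 and 296 CPM in mesothelial cells against 3.53 and 2.31 in fibroblasts. The fibroblast genes Col1a1, Col3a1 and Dcn were less confined. Together they reached 22467 and 26018 CPM in fibroblasts of GFPhi and GFPlo, and 11506 and 13279 CPM in mesothelial cells. The neutrophil gate of GFPlo was less clean, with 2136 CPM of Col1a1 and a median of only 1400 UMIs per cell. The 2 libraries shared 94 cell barcodes. A level here is the CPM of UMIs summed over a gate, and since 3′ UMIs count molecules, levels of different genes are not scaled by length, although capture still differs between genes.

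**Figure D1:**
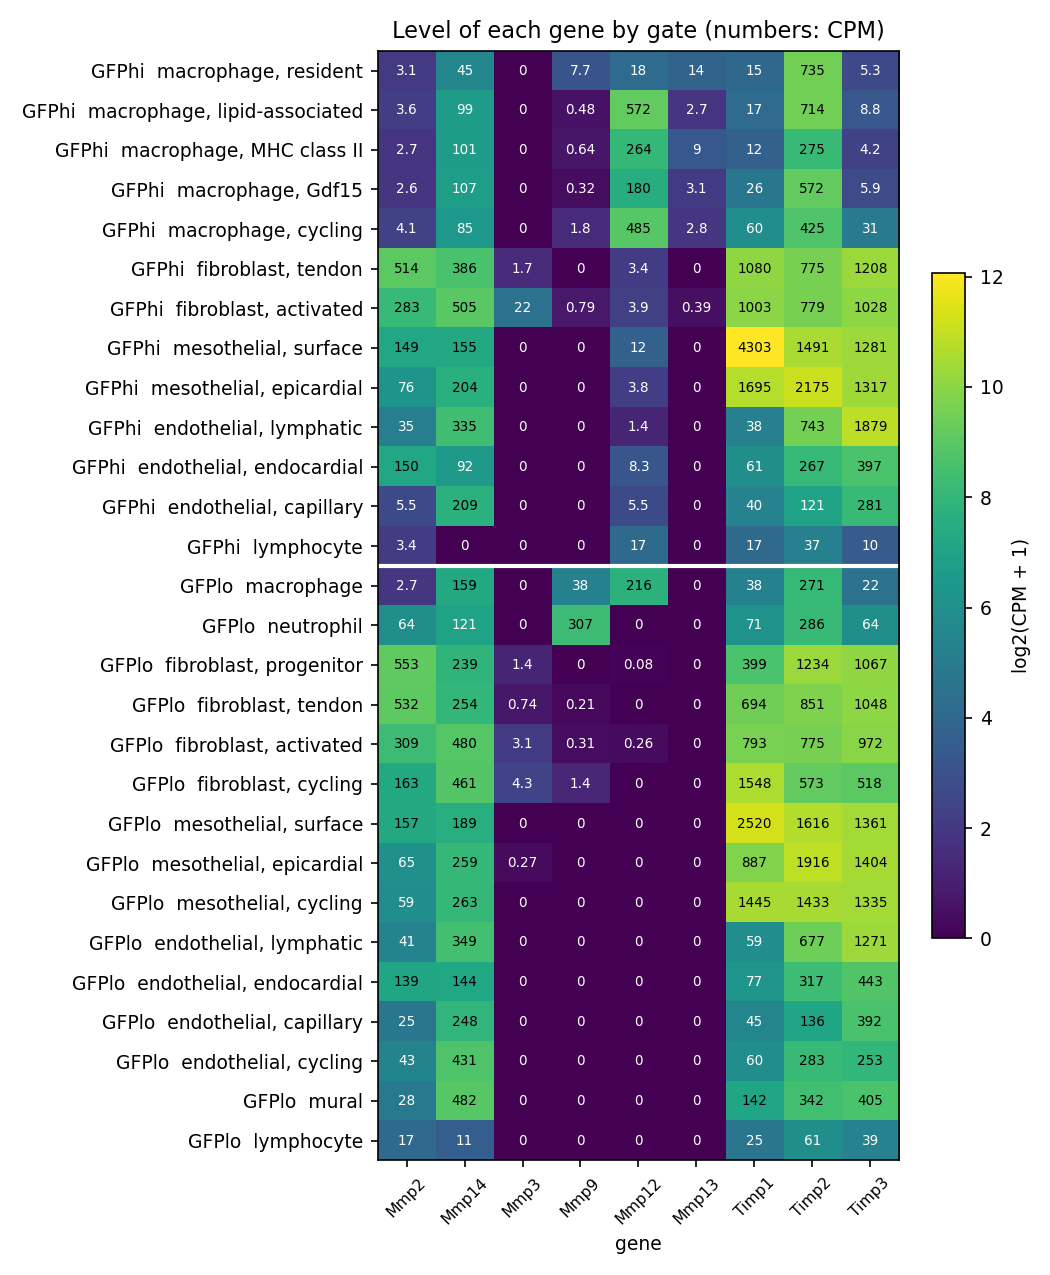
Level of the 9 genes (columns) in gates of GFPhi (upper block) and GFPlo (lower block) with 50 or more cells, coloured by log2(CPM + 1) with the CPM written in. Lineages with subsets are drawn by subset, without their cells in no subset, except GFPlo macrophages, which are drawn whole. Mmp12 and Mmp13 stand out in macrophages, Mmp9 in neutrophils, Mmp2 in fibroblasts and Timp1 in mesothelial cells, while Mmp14 and Timp2 are spread over all stromal and myeloid gates.

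Mmp12, the macrophage elastase, was the most narrowly placed of the abundant members. In GFPhi the macrophage gate held 23183 of its 23942 UMIs (96.8%), at 368 CPM (363 to 372). GFPlo held 139 Mmp12 UMIs in all, of which 79 lay in its 60 macrophages, at 216 CPM (171 to 270). Of those 79 UMIs, 29 were in 1 cell. Over whole libraries the GFPhi level was 198-fold the GFPlo level (168 to 236), a value that goes with the number of macrophages each fraction held. With each cell given equal weight the ratio was 89.8, and after thinning every cell to 1000 UMIs it was 81.1. Of the 9 genes, 4 were called between whole libraries by the rule given below, beside 28.9% of all genes measured. Mmp12 was higher in GFPhi, and Mmp2 (5.86-fold), Timp3 (3.18-fold) and Mmp14 (2.30-fold) were lower. Mmp13 (314 UMIs in GFPhi against 1 in GFPlo) and Mmp3 (66 against 273) had ratios of 361 and 0.278. Both were also past 2-fold but under the 10 CPM minimum, so they could not be called. A difference is called in this text when the ratio of levels is 2-fold or more, its interval is clear of 1, and the gene has at least 10 CPM in 1 of the pools and at least 3 UMIs. Shares of all genes are taken over the genes that reached this minimum. Counts of members are out of all 9 unless stated, including those below it.

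Macrophages were split by marker panels into resident (Cd163, Folr2, Timd4, F13a1, Cbr2), lipid-associated (Gpnmb, Fabp5, Spp1, Trem2, Lgals3), MHC class II, Gdf15 and cycling subsets. In the GFPhi fraction Mmp12 stood at 572 CPM (561 to 583) in the 1951 lipid-associated cells, 485 in cycling cells, 264 in MHC class II cells, 180 in Gdf15 cells and 17.5 (14.5 to 21.0) in the 922 resident cells. No intervals of neighbours in that order overlapped. Lipid-associated cells thus had 32.7 times the Mmp12 of resident cells (27.3 to 39.5), a comparison in which 20.9% of all genes were called. Against the rest of the macrophages, Mmp12 was 23.4-fold lower in resident cells, 2.03-fold higher in lipid-associated cells (1.98 to 2.09) and 2.22-fold lower in Gdf15 cells. The lipid-associated ratio was 2-fold only by a small margin, and the call was lost when the subset panels had to lead by 3 times. The Gdf15 call was lost with the mean over cells, where each cell has equal weight, at a ratio of 0.537.

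Only some macrophages carried Mmp12. A UMI was found in 1856 of 7531 cells (24.6%), and the 754 cells highest in it held 91.0% of the gene's UMIs, with up to 318 in a single cell and a median of 0. Because depth differs between subsets, each cell was also thinned to 1000 UMIs, which left 10.5% of macrophages with Mmp12 (9.78 to 11.2). The thinned share was 17.3% in lipid-associated and 17.1% in cycling cells, 8.62% in MHC class II cells, 7.19% in Gdf15 cells and 0.651% in resident cells. For comparison, 0.273% of thinned fibroblasts and 0.971% of thinned mesothelial cells of GFPhi had a UMI.

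**Figure D2:**
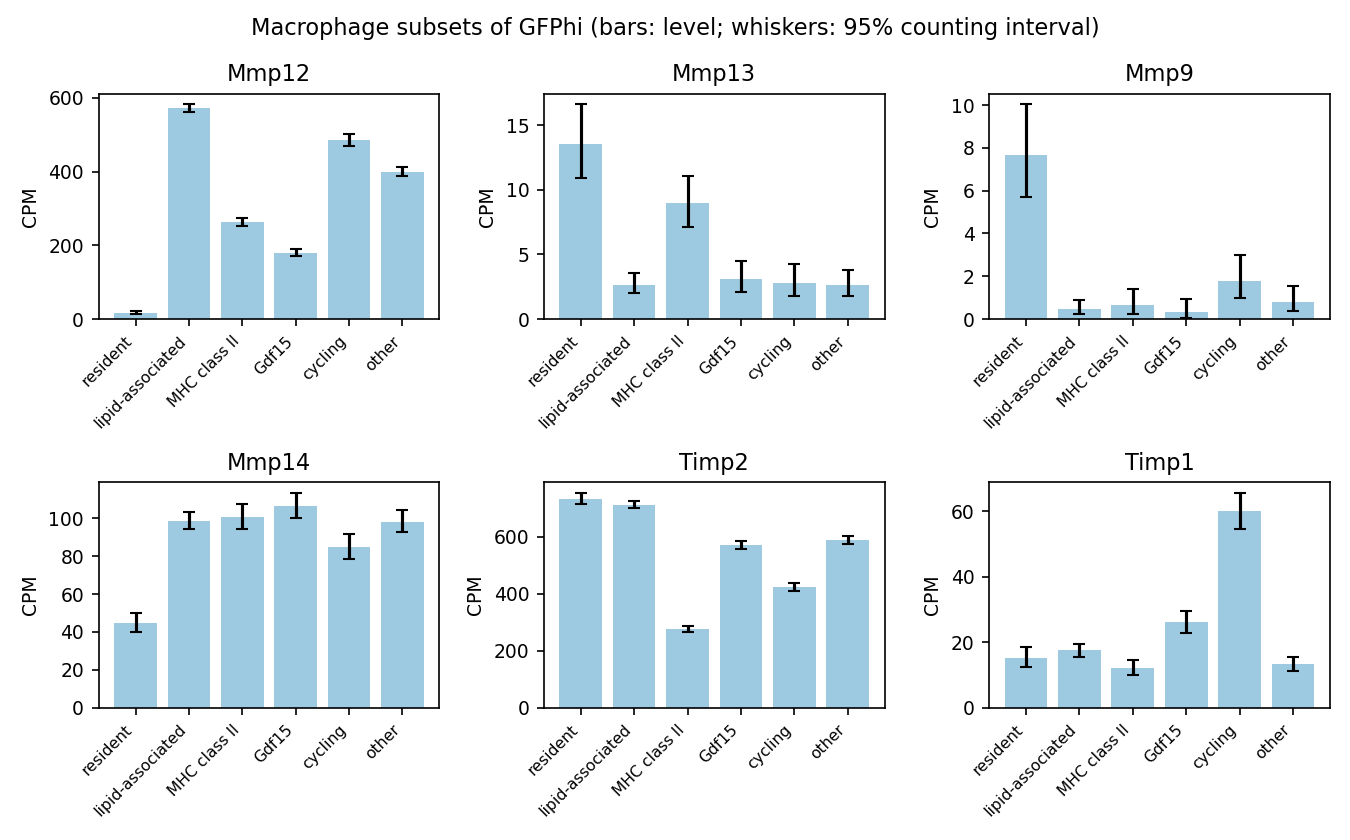
Level in CPM of 6 of the genes in the macrophage subsets of GFPhi, including cells in no subset (other); each panel has its own axis from 0, and whiskers are 95% counting intervals. Mmp12 is lowest in the resident subset, where Mmp13 and Mmp9 are highest, and Timp2 is lowest in the MHC class II subset.

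Mmp13, a collagenase, was a rare transcript with a different order over the same subsets. GFPhi macrophages held 306 of its 314 UMIs, spread over 159 cells, and GFPlo held 1 UMI in all. Its level was 13.5 CPM (10.9 to 16.6) in resident and 8.96 CPM (7.15 to 11.1) in MHC class II macrophages, whose intervals overlapped narrowly. The other subsets were at 2.63 to 3.12 CPM. Of the 92 UMIs in resident cells, 20 were in 1 cell, and 39 of the 922 resident cells had any. Of the 84 UMIs in MHC class II cells, 15 were in 1 cell. After thinning to 1000 UMIs, the ratio of MHC class II cells to the rest went from 2.17 to 1.32. That of lipid-associated cells went from 0.463 to 0.744. Resident cells were 3.56-fold above the other macrophages (2.76 to 4.57), and lipid-associated cells were 5.07-fold below resident cells. Mmp12 and its neighbour Mmp13 therefore differed between resident and lipid-associated macrophages in opposite directions.

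Mmp9, a gelatinase stored in neutrophil granules, peaked in neutrophils. The 51 neutrophils of GFPlo stood at 307 CPM (222 to 414), from 43 UMIs in 26 cells, which was 679-fold the fibroblast level of that library (418 to 1120), as the only higher call of 6 members called there, beside 30.1% of all genes. With each cell given equal weight this ratio was 1445 and after thinning 1721, over a fibroblast level of 0.452 CPM in the main setting. GFPhi, with 1 cell in the neutrophil gate, had 108 Mmp9 UMIs, 93 of them in macrophages. Of those 93 UMIs, 52 were in 29 of the 922 resident macrophages, at 7.65 CPM (5.72 to 10.0) against 0.322 to 1.78 in the other subsets. That level lies below the 10 CPM minimum, so no call was made from its ratio of 10.5 to the rest (6.84 to 16.2). Mmp9 and Mmp13, both highest in resident cells, were found together in 1 of 7531 macrophages, of 55 with Mmp9 and 159 with Mmp13. That cell was in the cycling subset, and 0 resident cells had both. With genes this rare, few shared cells would be seen even if they were unrelated, so the count says nothing of their relation. The 60 macrophages of GFPlo showed 38.4 CPM of Mmp9, but all 14 UMIs came from 1 cell, and 14 of the 15 mesothelial UMIs of that library were also in 1 cell.

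Mmp14, the membrane-anchored activator of pro-MMP2, and the inhibitor Timp2 were the members shared by macrophages and stroma. GFPhi macrophages had 92.7 CPM of Mmp14 (90.3 to 95.1), with 85.1 to 107 CPM in 4 subsets and 44.9 CPM (39.998 to 50.2) in resident cells, 2.19-fold below the rest. Timp2 stood at 572 CPM in GFPhi macrophages (566 to 578) and had a UMI in 86.3% of them, or 38.3% after thinning. It was 735 CPM in resident cells, 714 in lipid-associated, 572 in Gdf15, 425 in cycling and 275 (265 to 286) in MHC class II cells, the last 2.27-fold below the rest. Macrophages held 54.7% of the Timp2 UMIs of GFPhi, and 1732 of the 1856 cells with Mmp12 also had Timp2.

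In all, 3 of the 9 genes were called in resident cells against the rest (Mmp13 higher, Mmp12 and Mmp14 lower), where 13.1% of all genes measured were called. Mmp2, Mmp3 and Mmp9 were below the 10 CPM minimum in all these macrophage comparisons and could not be called. Lipid-associated cells had 1 call (4.82% of all genes), MHC class II cells 2 (4.98%), Gdf15 cells 1 (2.73%) and cycling cells 2 (10.3%). The second call in MHC class II cells was Timp3, at 4.16 CPM there and 2.60-fold below the rest. That call was lost with lineage panels leading by 10 times, at a ratio of 0.709, and with the mean over cells, at 0.548. The calls in cycling macrophages were Timp1 (59.9 CPM, 3.55-fold) and Timp3 (31.0 CPM, 4.57-fold), both genes of stromal cells. Col1a1, a fibroblast gene, was also higher in that subset, at 336 CPM against 50.2 in the rest. Both calls were lost when the macrophage panel had to lead every other by 10 times, which gave ratios of 1.52 and 1.10. Without the cell holding the most UMIs of each gene the ratios were 2.26 and 2.88.

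Among pathway genes beyond the 9, the sheddase gene Adam8 differed between the same subsets as Mmp12: 150 CPM in lipid-associated cells against 68.9 in the rest, and 34.3 in resident cells against 100 in the rest. Adam19 (64.5 against 18.8 CPM) and Adam9 (73.7 against 33.9 CPM) were called higher in resident cells. No other matrix metalloproteinase of the 16 in the table was called in resident or lipid-associated cells, and 1 of them reached the minimum level.

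Stromal gates of GFPhi also showed some Mmp12, at 8.41 CPM in fibroblasts, 6.94 in mesothelial and 4.60 in endothelial cells. Its amount relative to C1q transcripts (C1qa, C1qb and C1qc), which macrophages make in quantity, differed less between these gates than its level did. Macrophages had 2.82 Mmp12 UMIs per 100 C1q UMIs (2.78 to 2.85), fibroblasts 3.31 (2.53 to 4.26), mesothelial cells 2.81 (2.24 to 3.49) and endothelial cells 1.60 (0.796 to 2.88). The intervals of the 3 stromal gates all held the macrophage value, that of endothelial cells being wide, from 11 UMIs. GFPhi cells with mixed panels had 2.66 (2.30 to 3.05), and unassigned cells were higher, at 4.49 (4.04 to 4.97). The low Mmp2 of macrophages (3.12 CPM) came with 1.84 UMIs per 100 UMIs of Col1a1, Col3a1 and Dcn (1.59 to 2.12) against 1.65 in fibroblasts. Relative to the same collagen and Dcn UMIs, Timp1 and Timp3 of macrophages were above the fibroblast values. Timp1 was 13.1 (12.4 to 13.8) against 5.30, and Timp3 5.78 (5.32 to 6.27) against 4.87, with 28.2 and 10.5 in mesothelial cells. Where this low-level RNA came from, free RNA or mixed cells, was not tested.

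**Figure D3:**
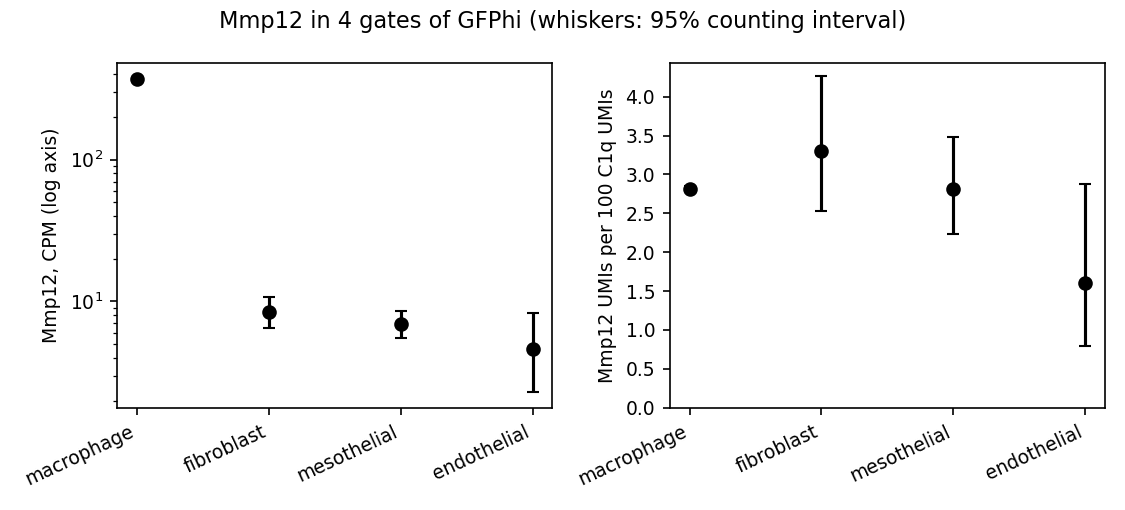
Mmp12 in 4 gates of GFPhi, as its level in CPM on a log axis (left) and as UMIs per 100 UMIs of the 3 C1q genes (right), with 95% counting intervals. The level is 43.7 times higher in macrophages than in fibroblasts, while the ratio to C1q is 2.82 and 3.31.

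Against the fibroblasts of their own library, GFPhi macrophages had 5 called members, among 40.8% of all genes. Mmp12 was higher (43.7-fold, 34.1 to 57.0, and 23.6-fold to 86.4-fold under other settings), and Mmp2 (119-fold), Timp3 (112-fold), Timp1 (53.5-fold) and Mmp14 (4.61-fold) were lower. Timp2 was not called, at 572 against 820 CPM. Genes of plasminogen activation, a route by which proenzymes are cut, were called higher in macrophages for Plau, the urokinase (31.2 against 5.42 CPM), and for its receptor Plaur (78.1 against 24.3 CPM).

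Mmp2, the gelatinase of stromal cells, was highest in fibroblasts, at 371 CPM in GFPhi (358 to 385) and 422 in GFPlo (417 to 427). Mesothelial cells had 118 and 104 CPM, endothelial cells 38.9 and 75.7, and GFPlo mural cells 28.0. Thus the order of the lineages was the same in both fractions. In GFPlo, mesothelial cells were 4.07-fold and endothelial cells 5.58-fold below fibroblasts. The 3 members called in that endothelial comparison, Mmp2, Timp1 and Timp2, were all lower, beside 27.5% of all genes.

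Within GFPlo fibroblasts, where numbers were largest, Mmp2 was higher and Mmp14 lower in progenitor and tendon cells than in activated and cycling cells. Mmp2 was 553 CPM (540 to 566) in progenitor cells (Pi16, Scara5, Dpp4 and others) and 532 (517 to 546) in the tendon subset (Comp, Thbs4, Cilp and others), whose intervals overlap. It was 309 (301 to 316) in activated cells (Cthrc1, Acta2, Ptn and others) and 163 (153 to 173) in cycling cells. Mmp14 was 239 CPM (231 to 248) in progenitor and 254 (244 to 264) in tendon cells, 480 (471 to 489) in activated and 461 (444 to 478) in cycling cells. In the smaller GFPhi gates, tendon cells likewise had more Mmp2 and less Mmp14 than activated cells, with Mmp2 at 514 and 283 CPM and Mmp14 at 386 and 505 CPM. None of these differences of the progenitor, tendon and activated subsets from the rest reached 2-fold, and 0 members were called there, against 6.10%, 4.13% and 3.38% of all genes.

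Timp1, an inhibitor gene known to be inducible by growth factors and cytokines, varied most of the 3 inhibitors among the fibroblast subsets. In GFPlo it was 399 CPM (388 to 410) in progenitor cells, 694 in tendon, 793 in activated and 1548 (1518 to 1579) in cycling fibroblasts. Cycling fibroblasts had 3 called members, beside 11% of all genes: Timp1 was 2.51-fold higher than in the rest, Mmp2 2.75-fold lower and Timp3 2.02-fold lower. Timp2 had the reverse order of Timp1, with 1234 CPM in progenitor, 851 in tendon, 775 in activated and 573 in cycling cells. Timp3, which unlike the other inhibitors binds to the matrix, was 1067, 1048 and 972 CPM in the first 3 subsets and 518 in cycling cells.

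Mmp3, or stromelysin-1, was confined to few fibroblasts. All but 3 of its 66 UMIs in GFPhi and all but 2 of its 273 UMIs in GFPlo were in the fibroblast gate, and 0 were seen in 7531 macrophages. It was found in 11 of 368 GFPhi fibroblasts (8.54 CPM, 6.57 to 10.9) and 85 of 6928 GFPlo fibroblasts (3.95 CPM, 3.50 to 4.45). Single cells carried much of the count: 1 GFPlo cell held 66 of 271 UMIs and 1 GFPhi cell held 32 of 63. Activated fibroblasts had 21.7 CPM in GFPhi, from 55 UMIs in 6 cells, and 3.14 CPM in GFPlo, from 72 UMIs in 30 cells. This ratio of 6.91 (4.78 to 9.96) was called, beside 1.48% of all genes, but it rests on those few cells.

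Mesothelial cells, the lining of the heart's surface, had the highest Timp1, Timp2 and Timp3 of all lineage gates in both fractions. Timp1 was 3248 CPM (3216 to 3280) in GFPhi and 1522 (1501 to 1543) in GFPlo mesothelial cells, against 1190 and 702 in fibroblasts. Timp2 was 1583 and 1538 CPM against 820 and 884, and Timp3 1214 and 1441 against 1095 and 997. In GFPlo, mesothelial cells had 2 called members against fibroblasts, Timp1 higher (2.17-fold, 2.13 to 2.20) and Mmp2 lower, beside 21.6% of all genes. In GFPhi they had 3 (23.3% of all genes), with Timp1 2.73-fold higher and Mmp2 and Mmp14 lower.

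The surface subset (Krt14, Slurp1, Krt5) and the epicardial subset (Pnoc, Enpp2, Wnt4) of mesothelial cells differed in Timp1 in both fractions. Surface cells had 4303 CPM in GFPhi and 2520 in GFPlo, and epicardial cells 1695 and 887. The surface level was 2.54-fold (2.45 to 2.63) and 2.84-fold (2.71 to 2.97) the epicardial one. After thinning, 84.9% and 76.1% of surface cells and 53.1% and 29.6% of epicardial cells had a Timp1 UMI. Mmp2 was also higher in surface cells, by 2.41-fold in GFPlo (157 against 65.2 CPM) and by 1.97-fold in GFPhi (149 against 75.5 CPM), the latter short of 2-fold. Each library had 2 called members here, beside 10.2% of all genes in GFPhi and 10.6% in GFPlo. The second call of GFPhi was Mmp12, of which 38 of 46 UMIs in surface cells came from 1 cell. Without that cell its ratio turned from 3.24 to 0.567.

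Timp1 was the single member called between the fractions in mesothelial cells, at 2.13-fold higher in GFPhi (2.10 to 2.17), where 2.04% of all genes were called. The difference had the same direction in both subsets, at 1.71 (1.65 to 1.77) in surface and 1.91 (1.82 to 2.00) in epicardial cells. Mesothelial cells in neither subset, 182 in GFPhi and 416 in GFPlo, had 3542 CPM (3489 to 3597) and 1665 CPM (1632 to 1699), and 1 GFPhi cell among them held 2382 of 16457 Timp1 UMIs. Surface cells made up 126 of 413 mesothelial cells in GFPhi and 109 of 872 in GFPlo. GFPhi mesothelial cells were also deeper, with a median of 28876 UMIs against 14476. After thinning to 1000 UMIs, 72.1% (67.5 to 76.4) of GFPhi and 49.4% (46.0 to 52.7) of GFPlo mesothelial cells had Timp1. The median cell had 13.2 Timp1 UMIs per 10000 in GFPhi and 6.21 in GFPlo, and 1 GFPhi cell held 2511 of the 39763 UMIs. The call was lost, at a ratio of 1.99, when the lineage panel had to lead by 10 times. Mesothelial Mmp2 (1.14), Mmp14 (0.744), Timp2 (1.03) and Timp3 (0.842) all had ratios within 2-fold.

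**Figure D4:**
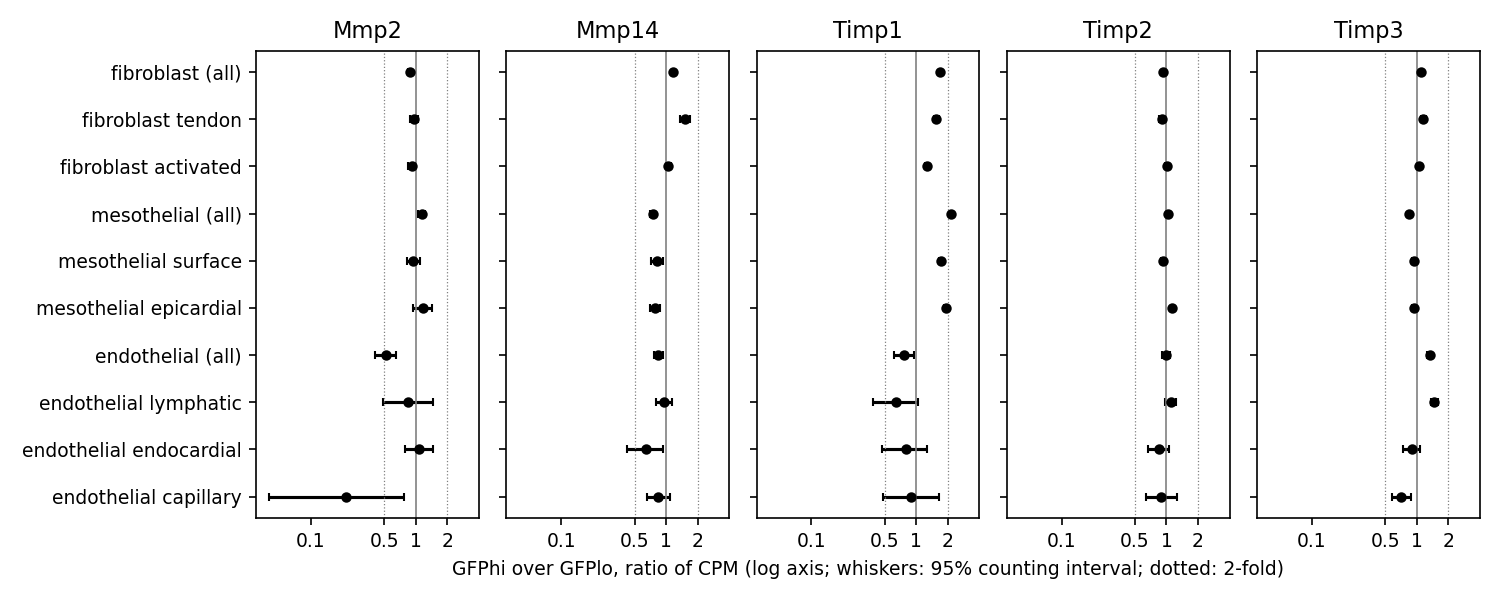
Ratio of the level in GFPhi to that in GFPlo for 5 of the genes in each stromal gate with 50 or more cells in both libraries, on a log axis with 95% counting intervals; dotted lines mark 2-fold. The points lie within 2-fold except Timp1 in mesothelial cells (2.13) and Mmp2 in capillary cells (0.217).

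Fibroblasts had 0 members called between the fractions, beside 1.33% of all genes. Of the 5 members above 10 CPM, Timp1 was farthest from 1, at 1190 CPM in GFPhi and 702 in GFPlo, a ratio of 1.70 (1.66 to 1.73). Mmp2 was at 0.880, Mmp14 at 1.18, Timp2 at 0.928 and Timp3 at 1.10 of the GFPlo level. Mmp3 (8.54 against 3.95 CPM) and Mmp12 (8.41 against 0.117 CPM) were below the 10 CPM minimum and could not be called. Endothelial cells also had 0 called members (4.06% of all genes), with Mmp2 at 0.514 (0.403 to 0.650) and Timp3 at 1.33 (1.25 to 1.41). Capillary cells had 1 call, Mmp2, 4.60-fold lower in GFPhi (5.29% of all genes called), which compared 3 UMIs with 14. In lymphocytes Timp3 was called lower in GFPhi (6.88% of all genes called), from 3 UMIs there, and Mmp12 was called from 5 UMIs against 0. GFPlo lymphocytes had 3.30 Timp3 UMIs per 100 UMIs of Col1a1, Col3a1 and Dcn (2.61 to 4.11), against 3.83 in GFPlo fibroblasts. GFPhi lymphocytes had 4.27 Mmp12 UMIs per 100 C1q UMIs (1.36 to 10.3), against 2.82 in GFPhi macrophages. The part of RNA from other cells in these calls was not tested.

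In macrophages the comparison rests on 60 GFPlo cells, 26 of them in the MHC class II subset. Of the 6 members that could be measured, 2 were called, beside 10.1% of all genes. Timp2 was higher in GFPhi, at 572 against 271 CPM (2.11-fold, 1.73 to 2.60), and Mmp9 was lower through the single cell described above. The Timp2 ratio fell below 2-fold, to 1.94 with lineage panels leading by 2 times and to 1.97 without Fbln1 in the fibroblast panel. Mmp12 had a ratio of 1.70 (1.36 to 2.15) and Mmp14 of 0.583 (0.450 to 0.769), neither past 2-fold. Single cells weighed on both GFPlo levels: 1 cell held 29 of the 79 Mmp12 UMIs, and 1 held 17 of the 58 Mmp14 UMIs. The ratios without these GFPlo cells were not tested. Timp1 (22.2 against 38.4 CPM, from 14 GFPlo UMIs) and Timp3 (9.82 against 21.9 CPM, from 8) had ratios of 0.580 (0.344 to 1.06) and 0.448 (0.226 to 1.04), whose intervals hold 1. These values depended on the gate: with lineage panels leading by 2 times the ratios were 0.063 and 0.098, and without Fbln1 in the fibroblast panel 0.059 and 0.092. The subset makeup differed between the fractions, and Timp2 in the MHC class II subset of GFPhi was 275 CPM; its part in the Timp2 ratio was not tested.

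Lymphatic endothelial cells (Prox1, Mmrn1, Flt4, Reln) had 1879 CPM (1780 to 1982) of Timp3 in GFPhi and 1271 (1198 to 1346) in GFPlo. In GFPlo that was 3.03-fold above the rest of the endothelium, Timp2 was 2.44-fold higher and Mmp2 2.09-fold lower, beside 18.1% of all genes. The Mmp2 call was lost with lineage panels leading by 10 times, at a ratio of 0.754 in place of 0.479. Endocardial cells (Npr3, Tmem108, Cdh11) had the most endothelial Mmp2, at 150 CPM in GFPhi and 139 in GFPlo, 7.80-fold and 2.95-fold above the rest. Their Mmp14, at 91.6 and 144 CPM, was 2.73-fold and 2.25-fold below the rest, so that Mmp2 and Mmp14 again differed in opposite directions. The 2 members called in endocardial cells of GFPlo stand beside 23.8% of all genes, and the 3 of GFPhi, Timp3 being the other, beside 23.3%. The endocardial gate depended on the lineage limit more than the other endothelial gates of GFPlo. With panels leading by 10 times it held 84 cells in place of 280, against 85 in place of 100 capillary and 137 in place of 173 lymphatic cells.

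Capillary cells (Car4, Gpihbp1, Rgcc and others) were low in Mmp2 and Timp2. Mmp2 was 5.51 CPM in GFPhi and 25.3 in GFPlo, and Timp2 121 and 136 CPM, 2.95-fold below the rest in GFPlo. Capillary cells had 2 members called in GFPlo (17.9% of all genes). Mural cells, seen in number only in GFPlo, combined 482 CPM of Mmp14 (429 to 541), above the 363 of fibroblasts, with 28.0 CPM of Mmp2. All 4 of the other abundant members, Mmp2 and the 3 inhibitors, were called lower in mural cells than in fibroblasts (23% of all genes called), by 2.46-fold to 15.1-fold.

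Mmp14, Mmp2 and Timp2, which act together in the activation of pro-MMP2, were found in the same cell most often in fibroblasts. All 3 had a UMI in 82.1% of GFPhi and 68.6% of GFPlo fibroblasts, in 63.9% and 48.2% of mesothelial cells and in 0.863% of GFPhi macrophages. These shares follow depth. At 1000 UMIs per cell they were 3.01% (11 of 366) and 4.52% (311 of 6884) in fibroblasts, 0.971% and 1.49% in mesothelial cells and 0.0134% in macrophages. Of those 6884 GFPlo fibroblasts, 1667 had Mmp14, 2376 Mmp2 and 3984 Timp2. Genes this common are often found in the same cell even if unrelated. Whether the 3 met more often than their separate shares would give was not tested.

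Summed over the 3 inhibitors and the 6 metalloproteinases, the number of Timp UMIs per Mmp UMI ranged widely over the gates. It was highest in mesothelial cells, at 20.04 in GFPhi and 13.2 in GFPlo. Resident macrophages had 8.71 (7.998 to 9.50), lymphatic endothelium 7.17 and 5.14, and fibroblasts 3.81 and 3.27. The other macrophage subsets were low, with 2.06 in Gdf15, 1.09 in lipid-associated, 0.891 in cycling and 0.774 in MHC class II cells. Resident and lipid-associated macrophages had nearly equal Timp2 (735 and 714 CPM), and the Mmp12 levels of 17.5 and 572 CPM set them apart. The ratio counts transcripts and not protein.

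**Figure D5:**
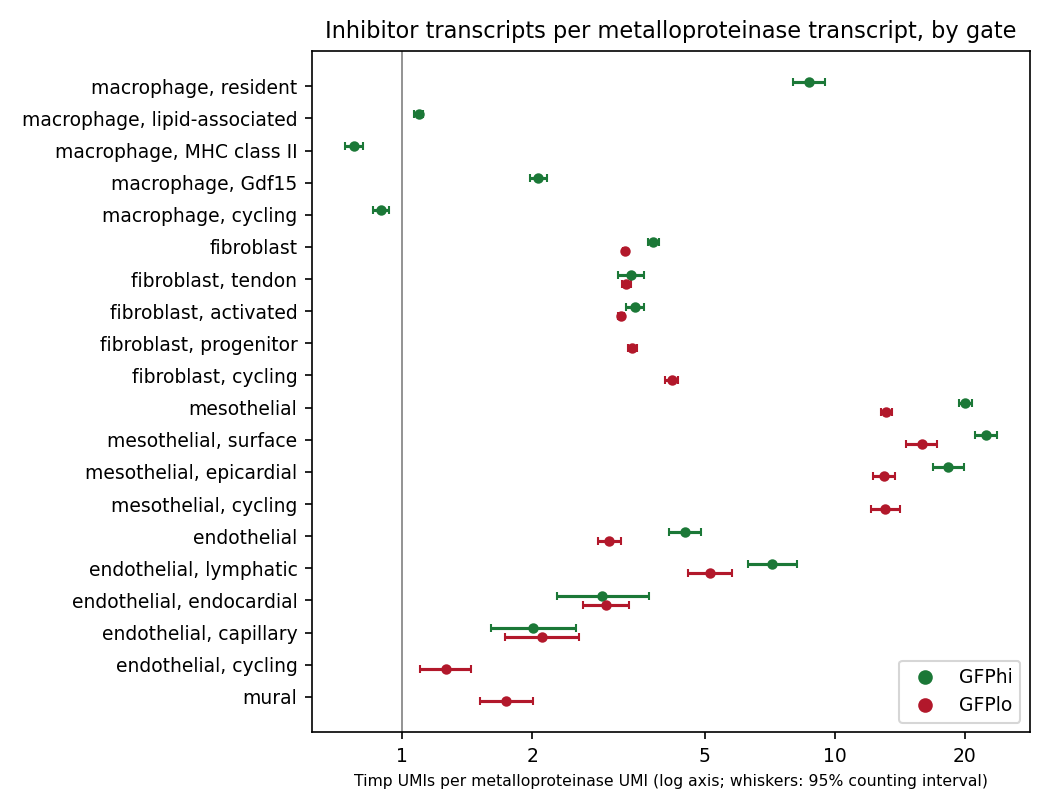
UMIs of Timp1, Timp2 and Timp3 per UMI of the 6 metalloproteinases in GFPhi (green) and GFPlo (red). Shown are macrophage subsets and fibroblast, mesothelial, endothelial and mural gates with 50 or more cells, on a log axis with 95% counting intervals. Neutrophils, lymphocytes, cells in no subset and undivided macrophages are not drawn. Of these, GFPlo macrophages had 0.796 (0.622 to 1.02) and GFPlo neutrophils 0.855 (0.594 to 1.23). Mesothelial cells have the most inhibitor transcripts per enzyme transcript (20.04 and 13.2), and among macrophages the resident subset (8.71) stands above the others.

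Other genes of the pathway were compared between the fractions in the same way. In fibroblasts, 4 of the 16 other matrix metalloproteinases in the table, 6 of 11 other inhibitors and activators, 5 of 8 plasminogen genes and 12 of 15 ADAM and ADAMTS genes could be measured, and 0 were called, beside 1.33% of all genes. In mesothelial cells, Lcn2, which binds MMP9, was called higher in GFPhi (78.9 against 28.4 CPM), and so was Spock2 (33.7 against 13.6 CPM). Serpine2, a protease inhibitor (3.19 against 10.2 CPM), and Adam12 (23.7 against 57.9 CPM) were called lower there, beside 2.04% of all genes. In macrophages Plau (31.2 against 11.0 CPM) and Adam8 (93.0 against 41.1 CPM) were called higher in GFPhi. The median ratio of the measured members was 1.10 in fibroblasts, 1.03 in mesothelial, 0.845 in endothelial cells and 0.581 in macrophages. Over all genes measured it was 0.936, 0.940, 0.992 and 0.882. The macrophage median of the members rests on 60 GFPlo cells. It carries the limits given above for single cells (Mmp9, Mmp12, Mmp14) and for the gate (Timp1, Timp3). Neutrophils of GFPlo had further enzymes of the family, Mmp8 at 229 CPM and Mmp25 at 42.9 CPM.

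The genes whose levels ran most like each member over the 28 pools of cells, by Pearson correlation of log2(CPM + 1) among 6651 genes, were named as a description. Pools share their library and cells of one lineage, and no p is given. Mmp2 was closest to Gxylt2 (0.98), Eln and Col5a2 (both 0.95). Mmp12 was closest to Fcgr1 (0.96) and Ms4a7 (0.95), which are markers of the macrophage gate, and to C3ar1 (0.95). Mmp13 ran with Lilra5 (0.94), Gpr34 (0.91) and Nxpe5 (0.90), and Mmp9 with Trem1 (0.97), Trem3 (0.96) and Trim30b (0.94). Mmp14 ran with Lmna (0.94), Pdlim7 and Dctn2 (both 0.92), and Mmp3 less closely with Csmd1 (0.81), Cemip (0.80) and Ms4a4d (0.76). Timp1 was closest to Sulf1, Gjb5 and Aldh1a1 (all 0.94), Timp2 to Rnase4 (0.94), Idh1 and Tex264 (both 0.88), and Timp3 to Zfpm2 (0.96), Adamts5 and B9d1 (both 0.95).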

How the data were processed

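Single-cell RNA-seq of non-cardiomyocyte cells of the infarct gave 1 library per sorted fraction. The authors deposited raw UMI counts per gene and cell barcode, mapped to mm10 per the submitters' processing notes. The kit is a SeekOne droplet 3′ kit in the labels' protocol and 10x Genomics in their description field. The sources used here do not give the aligner, the counting program or the cell caller. The libraries held 10430 and 12344 barcodes and 91343549 and 104855204 UMIs (GFPhi, GFPlo).

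Cells with at least 300 genes, 500 UMIs and at most 20% mitochondrial UMIs were kept. A cell entered a lineage with 3 markers, 5 panel UMIs and at least 3 times the UMIs of every other panel. Subsets were taken as cycling with 3 cycling markers, else by the panel leading the next by 1.5 times. No doublet caller was run, but cells with mixed panels (171 and 826) were left out by the same rule. Of the cells assigned, 102 and 529 lay within 1.5 times of the limit. UMIs were summed per gate with at least 50 cells and given as CPM. Levels have exact Poisson intervals, shares exact Clopper-Pearson intervals and ratios exact conditional intervals, all at 95% and for counting error only. A count of 0 was taken to allow up to 3 counts. All members, the listed pathway genes above 10 CPM and the 3 genes most alike to each member were named by rule; Adam8 and other examples were picked from that set. The members, lists, markers and alternatives were chosen with earlier results of these data known. Python 3.11.15, numpy 2.4.6, scipy 1.17.1 and pandas 2.3.3 were used, and the code was tested on simulated data. Alternatives changed the cell filter, both gate limits, the scaling, the weighting of cells, the depth, the call rule and, after the data were seen, the fibroblast panel and the cell with most UMIs of a member. Ccl21a had 2 rows in the table and was left out of its panel.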

Additional observations from a re-analysis of the deposited data

Results flagged for a closer look

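For 5 of the genes the ratio of GFPhi to GFPlo lay on opposite sides of 1 in a pair of gates, with both intervals clear of 1. With 1 library per fraction the difference between gates was not tested. Mmp2 had a ratio of 1.14 in mesothelial and 0.514 in endothelial cells. Mmp14 had 1.18 in fibroblasts and 0.583 in macrophages. Timp1 had 2.13 in mesothelial and 0.766 in endothelial cells. Timp2 had 2.11 in macrophages and 0.928 in fibroblasts. Timp3 had 1.33 in endothelial cells and 0.257 in lymphocytes, where GFPhi held 3 Timp3 UMIs. Only the ratios of Timp1 in mesothelial cells, Timp2 in macrophages and Timp3 in lymphocytes passed 2-fold. The macrophage ratios rest on 60 GFPlo cells, 1 of which held 17 of the 58 Mmp14 UMIs, and the Mmp14 ratio without that cell was not tested.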

How the results depend on the processing

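No paired analysis was possible because each fraction has 1 library, and for the same reason no replicate could be left out. Of the member ratios called in the main comparisons, all kept their direction under 8 alternatives (40 of 40 with the stricter cell filter, 42 of 42 after thinning, 45 of 45 with lineage panels leading by 10 times and 46 of 46 under each of the other 5), and 44 of 45 did so without the cell holding the most UMIs of a member. The exception was Mmp12 in surface over epicardial mesothelial cells of GFPhi (0.567 in place of 3.24). The cause of the changes below was not tested, apart from those that the rule itself makes.

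Counts of called members that moved by more than 1.5 times, or to or from 0, were as follows, and smaller changes are not listed. Between the fractions, macrophages had 4 in place of 2 with lineage panels leading by 2 or by 10 times, with the mean over cells and without Fbln1 in the fibroblast panel, and 1 at 3-fold. Mesothelial cells had 0 in place of 1 with panels leading by 10 times and at 3-fold, 2 after thinning and 3 with no CPM minimum. Fibroblasts had 1 in place of 0 after thinning and 2 with no CPM minimum. Endothelial cells had 1 in place of 0 with the stricter cell filter, with no CPM minimum and without the top cell. Among macrophage subsets of GFPhi against the rest, lipid-associated cells had 0 in place of 1 with subset panels leading by 3 times and at 3-fold, and 3 with no CPM minimum. MHC class II cells had 1 in place of 2 with lineage panels leading by 10 times, with the mean over cells, after thinning and without the top cell, 4 with subset panels leading by 3 times or no CPM minimum, and 0 at 3-fold. Gdf15 cells had 0 in place of 1 with the mean over cells and at 3-fold, and 2 with no CPM minimum, and cycling cells 0 in place of 2 with panels leading by 10 times. In GFPlo, progenitor fibroblasts had 1 in place of 0 with subset panels leading by 3 times and with median-of-ratios scaling, and 2 with no CPM minimum, tendon and activated fibroblasts 1 with no CPM minimum, and cycling fibroblasts 0 in place of 3 at 3-fold. Surface over epicardial cells had 1 in place of 2 in both libraries after thinning, and at 3-fold 1 in GFPhi and 0 in GFPlo, and 1 in GFPhi without the top cell. At 3-fold, lymphatic and capillary cells of GFPlo had 1 in place of 3 and 2, endocardial cells 0 (1 after thinning) in place of 2, and mesothelial over fibroblast 1 (4 with no CPM minimum) in place of 2.

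Timp1 in mesothelial cells kept a GFPhi over GFPlo ratio of 1.99 to 2.27 over all alternatives, and in surface over epicardial cells of GFPhi the Timp1 ratio went from 2.54 to 4.14 with panels leading by 10 times. Median-of-ratios scaling moved the median gene by 0.36 and 0.38 (log2) in endothelial and neutrophil over fibroblast of GFPlo and by -0.19 between macrophages, where the share of higher calls went from 27.8% to 47.4%. That share also moved from 37.6% to 51.2% between whole libraries, from 73.8% to 53.2% in resident and 11.2% to 23.4% in lipid-associated macrophages, and from 64.2% to 46.8% and 51.5% to 35.4% in endothelial and neutrophil over fibroblast. Of all genes, 796 were called between macrophages, 1584 with the mean over cells and 394 after thinning, and in fibroblasts 110 were called, 371 after thinning and 830 with no CPM minimum. Of the 27 genes named as most alike, 16 were shared with a pseudocount of 10.
With the stricter cell filter no value could be had for the neutrophil gate.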
